A study of Mus musculus with 18 samples.

Results

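The 6 cardiac ion channel genes, 6 of the 21631 protein-coding mouse genes examined, were described by ChIP-seq, the sequencing of DNA that comes down with an antibody against a chromatin protein. All 6 were taken with every region listed for KO against Cre that touched the gene span or the 10 kb either side of it, in mm10 coordinates, which gave 883 of the 2377384 listed regions. Pore-forming subunits of T-type calcium channels, a type of the fetal heart, are encoded by Cacna1h and Cacna1g. The other 4 genes, Cacna1c, Cacnb2, Scn10a and Scn4b, were set beside them as the adult channel genes, and no expression was measured, so that name comes from the choice of genes and not from these data. In the KO libraries H3K27me3 was mostly listed as higher over the T-type genes, at 44 of 58 regions. At the 4 adult genes 47 of 98 H3K27me3 regions were higher in KO, from 2 of 6 at Cacnb2 to 8 of 11 at Cacna1c. Over the whole H3K27me3 list 36.7% were higher.

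The series compared 2 genotypes of C57BL/6J mice in cardiomyocyte-enriched cell populations. KO mice were G9a flox/flox and alphaMHC-MerCreMer +/-, and Cre mice were alphaMHC-MerCreMer +/- alone, so both genotypes carried the transgene. Each of 4 targets had 2 KO and 2 Cre libraries, labelled as biological replicates, and each genotype had 1 input library, 18 libraries in 10 groups. Targets were the enzyme G9a (antibody Sigma G6919), the histone marks H3K9me2 (Abcam ab1220) and H3K27me3 (Millipore 07-449) and the transcription factor Mef2c (Abcam ab43796). The alphaMHC promoter is that of Myh6, which drives the transgene in heart muscle cells, and MerCreMer is a Cre recombinase that acts once tamoxifen is given. Cells of the preparation other than cardiomyocytes would therefore keep G9a. The sources used here do not give the age of the mice, the tamoxifen schedule or the number of hearts in a library.

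Voltage-gated channels open when the membrane depolarizes. In ventricular muscle, sodium channels carry the upstroke of the action potential, and L-type calcium channels, with a pore encoded by Cacna1c and an accessory beta subunit encoded by Cacnb2, let in the calcium that triggers contraction. T-type calcium channels open at lower voltages, are found in fetal and pacemaker cells, and are known to reappear in the hypertrophied ventricle. Scn10a encodes a sodium channel pore best known from sensory neurons, and Scn4b an accessory beta subunit of sodium channels. G9a, encoded by Ehmt2, methylates lysine 9 of histone H3, Polycomb repressive complex 2 sets H3K27me3, and both marks are known from silent genes, whereas Mef2c activates muscle genes.

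Of the G9a regions in the authors' deposited lists, 256 of 621134 lay in the 6 windows. The windows also held 261 of 716658 H3K9me2 regions, 156 of 504986 H3K27me3 regions and 210 of 534606 Mef2c regions. Each region has 2 KO and 2 Cre values, called signal below, on a scale that the sources used here do not state, and its own -log10 p, which was at least 2 throughout. Sequencing depth is unknown. Only regions that the authors listed as different have a value, so every count is a share of listed regions. Over the targeted gene, Ehmt2, the region with the highest -log10 p for G9a had signal of 67 and 106 in KO and 410 and 353 in Cre, while a neighbouring region had 175 and 246 in KO and 123 and 174 in Cre. Windows of 6 cardiomyocyte markers were covered by listed H3K27me3 regions over a median of 3.49% of their length, and Pln, which restrains the calcium pump, had none. Endothelial, fibroblast and leukocyte markers, 3 genes each, had a median cover of 36.2%, 48.1% and 51.7%. The part that cells other than cardiomyocytes play in the values over the 6 genes was not tested. These are bulk libraries, in which a change in the share of cells that carry a mark and a change of the mark within each cell cannot be told apart.

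The T-type genes are Cacna1h (gene ID 58226, chr17:25374285-25436334) and Cacna1g (12291, chr11:94408391-94474400). The L-type subunits are Cacna1c (12288, chr6:118587240-119197384) and Cacnb2 (12296, chr2:14603861-14988811), and the sodium channel genes are Scn10a (20264, chr9:119608456-119719322) and Scn4b (399548, chr9:45138624-45154155). Exons and introns within these spans were not analysed here. Windows of the 6 genes differed widely in how much of their length was listed. H3K27me3 covered 60.6% of the Cacna1h window and 20.2% of the Cacna1g window, against 64.7% at Scn4b, 53.2% at Scn10a, 1.28% at Cacna1c and 0.679% at Cacnb2. Over all protein-coding genes the median cover was 12.2%. Both subunits of the adult L-type channel thus lay almost outside the listed H3K27me3 regions, and both sodium channel genes were among the covered ones. G9a cover was likewise lowest at the L-type genes, with 53.7% of the Cacna1h window, 18.9% at Cacna1g, 49.5% at Scn10a, 27.4% at Scn4b, 5.13% at Cacna1c and 7.46% at Cacnb2, beside a median of 15.7%. H3K9me2 and Mef2c cover spread less, between 9.37% (Cacna1c) and 18.9% (Scn10a) for H3K9me2 and between 7.43% (Cacna1c) and 20.8% (Scn4b) for Mef2c.

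**Figure D1:**
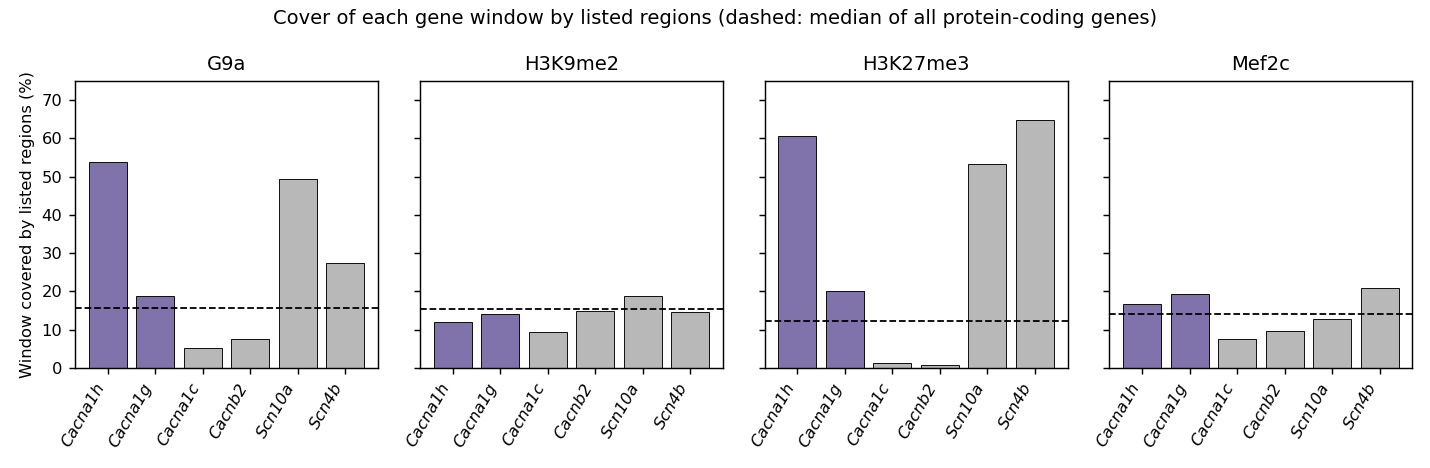
Percent of each gene window (y axis) covered by the authors' listed regions, for each gene (x axis, T-type genes in purple, adult genes in grey) and target (panels). The dashed line is the median over protein-coding genes; H3K27me3 and G9a covered much of Cacna1h, Scn10a and Scn4b (G9a less at Scn4b), and under 8% of Cacna1c and Cacnb2.

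Listed G9a and H3K27me3 regions often touched each other at the covered genes. At Cacna1h 80.0% of the G9a regions touched an H3K27me3 region, and 88.6% of the H3K27me3 regions touched a G9a region. The figures were 79.4% and 72.6% at Scn10a, and 6.67% and 45.5% at Cacna1c. Over all listed regions they were 45.8% and 53.4%, and all these shares grow with the length that is listed.

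The starts of the adult genes are shown by the 300 bases around them, 250 before the start and 50 after it, from RefSeq on GRCm38.p6, read along the gene's strand, with every CpG in capitals. They show how far the starts differ in CpG content and which of them a listed region touched. The entries are Scn4b (chr9:45138374-45138673, plus strand), Cacnb2 at its first start (chr2:14604056-14604355, plus strand), Scn10a (chr9:119718983-119719282, minus strand) and Cacna1c at its second start (chr6:119108446-119108745, minus strand).
Scn4b: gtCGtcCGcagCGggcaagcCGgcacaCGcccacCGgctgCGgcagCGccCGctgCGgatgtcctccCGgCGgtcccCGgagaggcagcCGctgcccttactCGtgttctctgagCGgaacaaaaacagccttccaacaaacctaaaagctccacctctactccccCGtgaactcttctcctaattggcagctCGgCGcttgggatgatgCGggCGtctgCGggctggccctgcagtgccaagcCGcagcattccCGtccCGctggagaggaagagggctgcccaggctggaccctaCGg
Cacnb2: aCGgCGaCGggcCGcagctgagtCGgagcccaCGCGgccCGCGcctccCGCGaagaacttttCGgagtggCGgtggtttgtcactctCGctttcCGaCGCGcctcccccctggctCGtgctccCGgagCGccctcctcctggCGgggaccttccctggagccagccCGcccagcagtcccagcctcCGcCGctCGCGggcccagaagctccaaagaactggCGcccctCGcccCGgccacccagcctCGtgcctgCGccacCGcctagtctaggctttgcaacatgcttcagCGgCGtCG
Scn10a: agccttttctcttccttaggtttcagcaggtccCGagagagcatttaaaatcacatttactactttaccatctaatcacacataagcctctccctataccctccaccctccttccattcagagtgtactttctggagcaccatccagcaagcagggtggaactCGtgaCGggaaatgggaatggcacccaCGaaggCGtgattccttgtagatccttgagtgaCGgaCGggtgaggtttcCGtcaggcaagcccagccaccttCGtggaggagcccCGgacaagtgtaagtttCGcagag
Cacna1c: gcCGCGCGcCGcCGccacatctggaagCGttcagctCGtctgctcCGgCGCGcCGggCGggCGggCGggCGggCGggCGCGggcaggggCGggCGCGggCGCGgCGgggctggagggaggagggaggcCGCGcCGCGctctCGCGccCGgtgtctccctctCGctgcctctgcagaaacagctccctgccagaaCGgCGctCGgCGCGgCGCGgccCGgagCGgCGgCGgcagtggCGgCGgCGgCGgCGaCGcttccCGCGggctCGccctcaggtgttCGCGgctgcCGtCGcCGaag
The Scn4b sequence holds 26 CpG, that of Cacnb2 35, that of Scn10a 11 and that of Cacna1c 57, beside a median of 7 over the 32851 promoters of the table. Their share of G and C was 66.3%, 71.7%, 51.7% and 81.3%, beside a median of 52.7%. The starts not printed held fewer CpG, 3 at the first and 7 at the third start of Cacna1c and 4 at the second start of Cacnb2. No promoter sequence is shown for Cacna1h and Cacna1g.

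Among the 4 adult genes, Scn4b was the one with a start touched by all 4 lists. The H3K27me3 region chr9:45138351-45139850, which spans the start, had signal of 434 and 572 in KO and 207 and 190 in Cre per the authors' deposited list, which gives a log2 ratio of 1.34. Both KO values lay above both Cre values. The H3K9me2 region over the start had 187 and 259 in KO and 113 and 8 in Cre, and here as well the groups did not overlap, though the Cre values lay far apart. G9a signal over the start was 117 and 94 in KO and 132 and 260 in Cre, lower in both KO libraries. Mef2c signal there was 98 and 157 in KO and 43 and 132 in Cre, and the groups overlapped. Over the start itself both histone marks were therefore listed as higher and G9a as lower in KO. Upstream, at chr9:45135501-45137700 and also within 1 kb of the start, H3K27me3 went the other way, with 306 and 171 in KO and 558 and 393 in Cre (log2 ratio -0.99). Tested with limma over all listed H3K27me3 regions, the H3K27me3 region differed by 1.32 on the log2(value + 1) scale (SE 0.40, unadjusted p 0.00636, adjusted p 0.322). The H3K9me2 region had a limma adjusted p of 0.4.

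Starts of the other adult genes were touched by fewer lists. At the first start of Cacnb2, H3K9me2 signal was 239 and 179 in KO and 28 and 117 in Cre (chr2:14603651-14604800), a log2 ratio of 1.51 with no overlap of the groups. A short G9a region that ended 156 bases before the start had 68 and 75 in KO and 38 and 0 in Cre (chr2:14603751-14604150). H3K9me2 was thus listed as higher over this start, and G9a as higher beside it. A further H3K9me2 region within 1 kb, chr2:14602801-14603350, was lower, with 60 and 71 in KO and 113 and 113 in Cre, and no H3K27me3 or Mef2c region lay within 1 kb. At the Scn10a start, G9a signal was 310 and 9 in KO and 565 and 322 in Cre (chr9:119718551-119720600), so both KO values were lower, and 1 of them lay close to the lower Cre value. H3K27me3 over the same start had 343 and 265 in KO and 95 and 306 in Cre, and the groups overlapped. The printed Cacna1c start was touched by no listed region, and the nearest one within 1 kb was a short H3K27me3 region 295 bases away with 120 and 27 in KO and 25 and 0 in Cre. An H3K9me2 region 74 bases from the third Cacna1c start had 273 and 260 in KO and 113 and 139 in Cre (log2 ratio 1.07).

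Over the T-type genes H3K27me3 went against the direction of its own list. Among all listed H3K27me3 regions 36.7% were higher in KO, while at the T-type genes 44 of 58 regions (75.9%) were. The adult genes had 47 of 98 (48.0%) higher. By gene this was 8 of 11 at Cacna1c (72.7%), 2 of 6 at Cacnb2, 29 of 62 at Scn10a and 8 of 19 at Scn4b. Beside these, 38.2% of the regions inside protein-coding gene spans were higher in KO. As the regions of a gene lie side by side in the same 4 libraries, they are not independent, and these shares are a description.

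**Figure D2:**
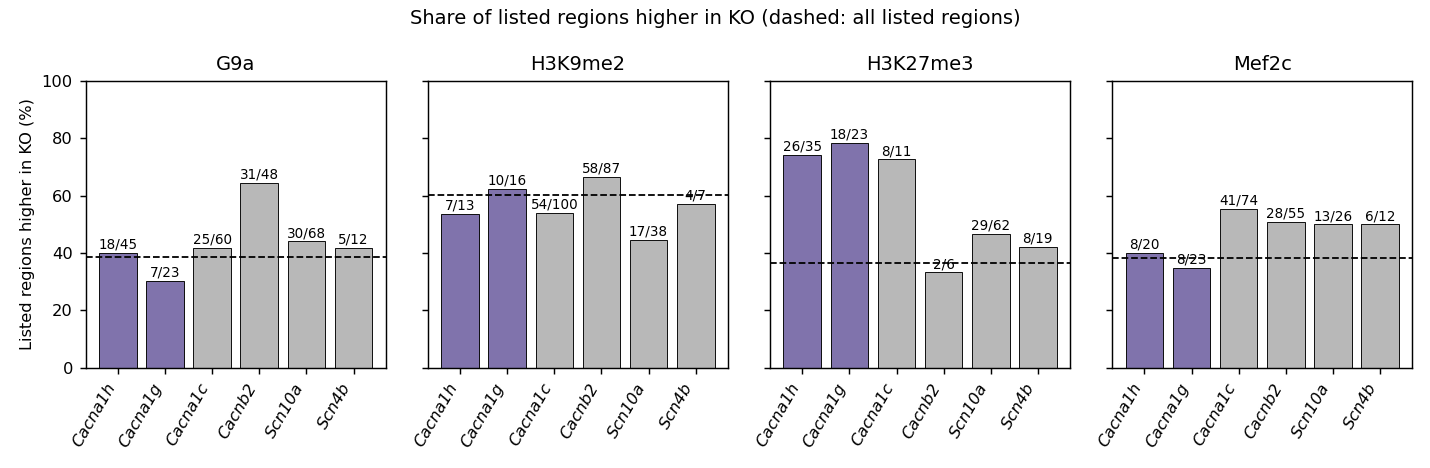
Percent of listed regions that were higher in KO (y axis) for each gene (x axis, T-type in purple, adult in grey) and target (panels), with the counts above the bars. The dashed line is the percent over all listed regions. For H3K27me3 every gene but Cacnb2 (2 of 6) stands above it. Cacna1h (26 of 35), Cacna1g (18 of 23) and Cacna1c (8 of 11) lie higher than Scn10a (29 of 62) and Scn4b (8 of 19).

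Cacna1h, which encodes a T-type calcium channel pore, had the highest H3K27me3 log2 ratio of sums among the genes that were higher in KO. Its summed listed signal was 15267 and 14995 in KO libraries and 10168 and 10331 in Cre libraries, over 49.8 kb of listed sequence, a log2 ratio of 0.56. The KO libraries differed from each other by far less than from the Cre libraries. Per kb of listed region this was 307 and 301 in KO and 204 and 208 in Cre. Inside the gene span (chr17:25374285-25436334) 20 of 25 regions were higher in KO, with a log2 ratio of sums of 0.81, whereas in the flanks 6 of 10 were, with a ratio of -0.01. In a window of 50 kb either side the ratio was 0.10, smaller than within the span. The window also reaches the neighbouring genes Tpsb2 and Tpsg1 at the low-coordinate end.

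The H3K27me3 region with the highest -log10 p in the 6 windows, 137 in the authors' deposited list, lay at the high-coordinate end of Cacna1h. It ran over 6.45 kb (chr17:25429851-25436300) and stopped 34 bases short of that end of the span. Its signal was 4569 and 4118 in KO and 2521 and 2060 in Cre. Every KO value was above every Cre value, at 708 and 638 per kb in KO and 391 and 319 per kb in Cre. Limma gave a difference of 0.93 on the log2(value + 1) scale (SE 0.17, unadjusted p 0.000108), the lowest unadjusted p of the regions named here, and an adjusted p of 0.322. Only 0.145% of the listed H3K27me3 regions were as long and 0.00752% had as high a -log10 p. Other regions inside the span were shorter, and that at chr17:25412151-25412850 had signal of 177 and 161 in KO and 22 and 6 in Cre, a log2 ratio of 3.50. Beyond the low-coordinate end of the gene H3K27me3 regions went both ways. Signal was 567 and 523 in KO and 885 and 1160 in Cre at chr17:25364651-25366900, and 472 and 869 in KO and 554 and 295 in Cre at the adjoining chr17:25366901-25368300.

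At the same end of Cacna1h the other targets had no such wide difference. G9a signal at chr17:25429901-25431350 was 286 and 282 in KO and 65 and 241 in Cre, higher in KO, and at the adjoining region chr17:25428651-25429900 it was 194 and 136 in KO and 338 and 185 in Cre. That adjoining region lay almost wholly outside the H3K27me3 domain. Inside it, G9a was lower at chr17:25432851-25433250, with 49 and 11 in KO and 59 and 93 in Cre. At chr17:25434901-25435900 it was 377 and 4 in KO and 85 and 99 in Cre, and the groups overlapped. The G9a regions under the domain thus pointed both ways. Mef2c signal at chr17:25430651-25431350 was 22 and 45 in KO and 90 and 206 in Cre. It was 122 and 136 in KO and 50 and 71 in Cre at chr17:25434001-25434600, so Mef2c too pointed both ways there. Over the whole window Mef2c was lower, with sums of 1452 and 1610 in KO and 2026 and 2276 in Cre, a log2 ratio of -0.49. It was -0.17 with libraries scaled to the same median, -0.32 with 50 kb either side and -0.82 at a -log10 p of 5 or more. Cacna1h was the single gene of the 6 whose Mef2c sums did not overlap. Among all protein-coding genes with a listed Mef2c region, 47.6% had lower and 10.5% higher sums in KO without overlap.

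Cacna1g encodes the other T-type pore of the heart, and its H3K27me3 regions were shorter and weaker. Signal summed to 3467 and 4015 in KO and 3045 and 2513 in Cre, a log2 ratio of 0.43 with no overlap, and 0.17 in a window of 50 kb either side. Inside the gene span 12 of 14 regions were higher in KO. The region with the highest -log10 p among those higher in KO, chr11:94455651-94456800, had 272 and 227 in KO and 143 and 8 in Cre. Towards the high-coordinate end 3 adjoining regions went both ways. They had 198 and 178 in KO and 135 and 90 in Cre at chr11:94472401-94473000, 345 and 474 in KO and 490 and 561 in Cre at chr11:94473001-94473900, and 553 and 603 in KO and 483 and 458 in Cre at chr11:94473901-94475550. G9a was lower over the Cacna1g window, with 2452 and 1505 in KO and 2705 and 3098 in Cre (log2 ratio -0.55), and H3K9me2 was higher, with 1723 and 2067 in KO and 1246 and 1622 in Cre (log2 ratio 0.40). Once the libraries were scaled to the same median, the ratios were -0.25 for G9a and 0.09 for H3K9me2. At 1 H3K9me2 region inside the gene, chr11:94472401-94473250, the signal was 163 and 241 in KO and 37 and 0 in Cre.

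**Figure D3:**
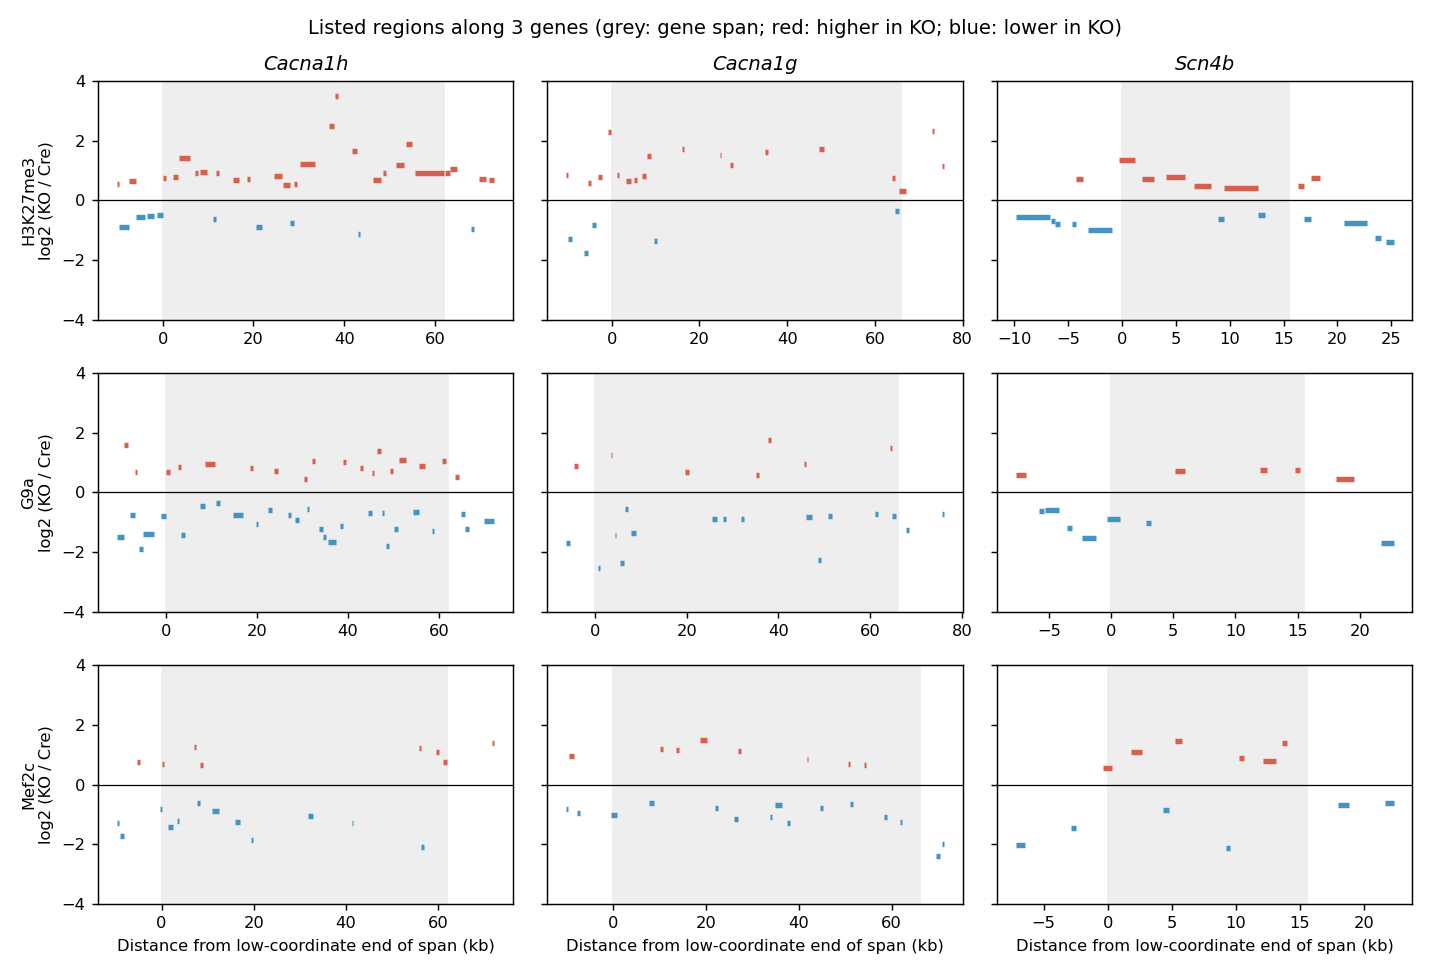
log2 ratio of KO to Cre of each listed region (y axis; red higher, blue lower in KO) by distance from the low-coordinate end of the gene span in kb (x axis; grey, the span) for Cacna1h, Cacna1g and Scn4b. H3K27me3 was mostly higher inside the spans, at 20 of 25, 12 of 14 and 5 of 7 regions, and G9a and Mef2c regions lay on both sides of 0.

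Within a library, T-type H3K27me3 signal relative to adult H3K27me3 signal does not depend on how libraries are scaled. Its log2 ratio was -0.32 and -0.22 in KO and -0.98 and -0.86 in Cre, a difference of 0.65 with no overlap. For Mef2c the ratio was -2.09 and -1.97 in KO and -1.78 and -1.61 in Cre, lower in KO by 0.33 with no overlap. Relative to the summed adult genes, the T-type genes thus had more listed H3K27me3 and less listed Mef2c signal in KO. For Mef2c the T-type genes lay near the whole list, with 27 of 43 regions (62.8%) lower in KO, beside 61.7%. At the adult genes 79 of 167 Mef2c regions (47.3%) were lower. Neither the H3K27me3 nor the Mef2c difference can pass an exact test. With 2 values against 2, no two-sided exact permutation p can be under 0.333, which both reached. For G9a the ratio was -0.91 and -1.82 in KO and -1.05 and -0.95 in Cre, and for H3K9me2 it was -2.76 and -2.75 in KO and -2.97 and -2.68 in Cre, and both overlapped. The H3K27me3 difference was 0.79 inside gene spans, 0.25 with 50 kb either side, 0.52 without Scn10a and 0.55 without Cacna1h. The adult H3K27me3 sum came mostly from the sodium channel genes. In the first KO value Scn10a gave 15338 and Scn4b 6443 of 23462. The L-type genes thus weighed little in it, and their own log2 ratios were 0.31 (Cacna1c) and -0.55 (Cacnb2).

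Among the adult genes, Cacna1c and Cacnb2 had few listed H3K27me3 regions. Regions that were not listed have no value, so the level of the mark there is unknown. Cacna1c had 1432 and 1631 in KO and 1413 and 1058 in Cre over 11 regions of its 630 kb window, and Cacnb2 had 249 and 324 in KO and 434 and 406 in Cre over 6 regions. The sums of the pore gene were higher and those of the beta subunit gene lower in KO, each without overlap. With 50 kb either side the Cacnb2 ratio was 0.12, against -0.55 in the narrower window. Cacna1c held a short region, chr6:119143101-119143500, with 80 and 105 in KO and 9 and 9 in Cre. For H3K9me2, which had more regions at these genes than any other target, Cacnb2 had 8513 and 10321 in KO and 7817 and 6857 in Cre (log2 ratio 0.36, or 0.07 with libraries scaled to the same median, 58 of 87 regions higher). H3K9me2 at Cacna1c was 8140 and 8605 in KO and 8124 and 7802 in Cre, a log2 ratio of 0.07 that became -0.22 with that scaling, with 54 of 100 regions higher. Over all listed H3K9me2 regions 60.3% were higher, above the Cacna1c share and below the 66.7% of Cacnb2. G9a over Cacnb2 was 4102 and 5325 in KO and 4052 and 3494 in Cre, with 31 of 48 regions higher, against 38.5% over all listed G9a regions. Cacnb2 was the single member with G9a sums higher in KO without overlap, beside 9.51% of the protein-coding genes with a listed G9a region.

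Over the sodium channel genes H3K27me3 pointed both ways. Scn10a sums were 15338 and 14588 in KO and 18237 and 15838 in Cre, a log2 ratio of -0.19 with 29 of 62 regions higher, but the ratio became 0.10 when the libraries were scaled to the same median. Its strongest region by -log10 p, 6 kb long at chr9:119706201-119712200, had 1488 and 873 in KO and 2266 and 2119 in Cre. Limma gave -0.94 on the log2(value + 1) scale for it (SE 0.26, unadjusted p 0.00307, adjusted p 0.322). A short region near the low-coordinate end, chr9:119609651-119610350, went the other way, with 119 and 181 in KO and 10 and 43 in Cre. Scn4b sums were 6443 and 5526 in KO and 6068 and 6035 in Cre and overlapped. This hid a split by position, since inside the span 5 of 7 regions were higher in KO (log2 ratio of sums 0.48), while outside it 3 of 12 were (-0.48). Over all protein-coding genes 38.2% of the H3K27me3 regions were higher inside spans and 38.7% outside. For Mef2c at Scn4b 6 of 8 regions were higher inside the span (0.59) and 0 of 4 outside (-1.06), beside 40.4% and 39.6% over all protein-coding genes. These counts are small and were not tested. The low-coordinate flank of Scn4b holds the neighbouring beta subunit gene Scn2b in reach of 10 kb, and no region was assigned between the neighbours.

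**Figure D4:**
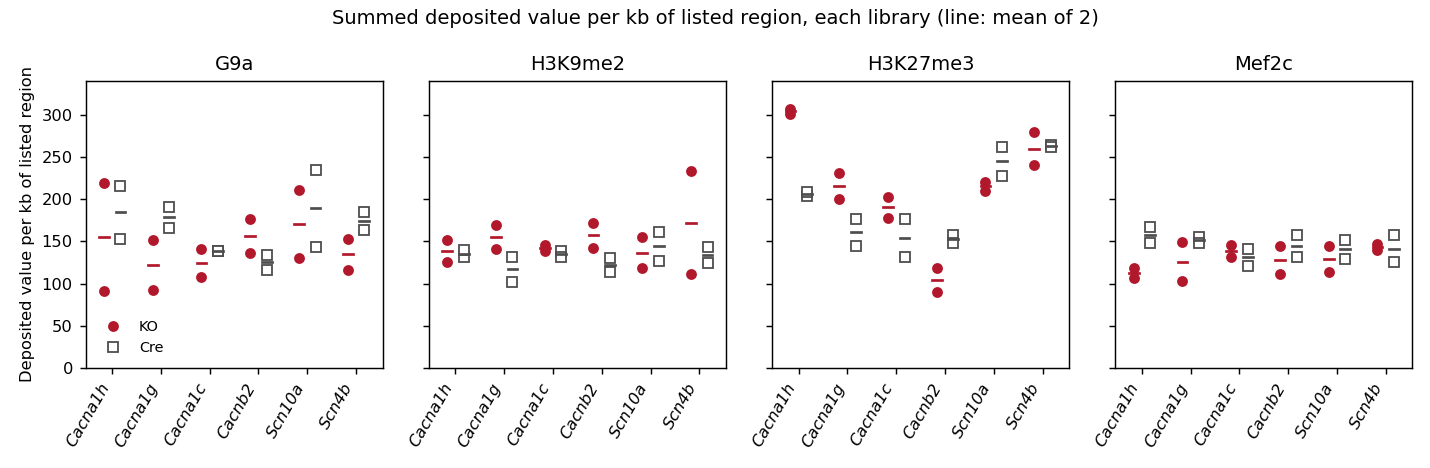
Summed signal per kb of listed region (y axis) in each library for the 6 genes (x axis) and 4 targets (panels); filled circles are KO, open squares Cre, and lines the mean of 2 libraries. H3K27me3 at Cacna1h was 307 and 301 in KO and 204 and 208 in Cre, and the groups overlapped at Scn4b for H3K27me3.

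G9a, the targeted enzyme, had KO sums that differed widely between libraries at Cacna1h and Scn10a. At Cacna1h its sums were 9647 and 4022 in KO and 9524 and 6768 in Cre, and at Scn10a 13669 and 8440 in KO and 15252 and 9282 in Cre. At Cacna1h the higher KO sum lay above both Cre sums, at Scn10a it lay between them, and at both genes the lower KO sum lay below both. At Cacna1c G9a was 3496 and 4555 in KO and 4490 and 4478 in Cre, also overlapping. Scn4b had lower G9a sums in both KO libraries, 1496 and 1131 in KO and 1599 and 1800 in Cre, a log2 ratio of -0.37. It was 0.04 within the span alone, -0.06 with libraries scaled to the same median and -1.38 at a -log10 p of 5 or more. Single G9a regions differed far more than the sums. At chr17:25369101-25371600, over Tpsg1 next to Cacna1h, signal was 391 and 127 in KO and 818 and 533 in Cre. At chr11:94413751-94414600 in Cacna1g it was 77 and 0 in KO and 250 and 157 in Cre, and at chr6:119091201-119091550 in Cacna1c it was 0 in both KO libraries and 87 and 73 in Cre. In the other direction, chr2:14956251-14956850 in Cacnb2 had 20 and 250 in KO and 3 and 11 in Cre, a difference carried mainly by 1 KO library.

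H3K9me2, the product of G9a, had overlapping sums at the remaining 3 genes. Cacna1h had 1244 and 1509 in KO and 1292 and 1386 in Cre, Scn10a 2923 and 3848 in KO and 3147 and 3987 in Cre, and Scn4b 571 and 1200 in KO and 736 and 640 in Cre. The log2 ratios were 0.04, -0.08 and 0.36, and that of Scn4b ran between -0.27 and 0.80 when each value was left out. Single regions stood out in both directions. In Cacnb2 chr2:14761951-14762550 had 139 and 165 in KO and 9 and 34 in Cre, and in Cacna1c chr6:118992951-118993700 had 101 and 230 in KO and 6 and 37 in Cre. Lower in KO was chr9:119721551-119722550 beside Scn10a, with 37 and 91 in KO and 229 and 183 in Cre. At none of these did the groups overlap.

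Mef2c sums overlapped between the genotypes at the other 5 genes. They were 1722 and 2477 in KO and 2578 and 2466 in Cre at Cacna1g, and 6184 and 6812 in KO and 6581 and 5650 in Cre at Cacna1c. Cacnb2 had 4366 and 5671 in KO and 6148 and 5133 in Cre. The sodium channel genes had 1930 and 2443 in KO and 2179 and 2576 in Cre (Scn10a) and 1035 and 1086 in KO and 923 and 1163 in Cre (Scn4b). Of the regions lower in KO, that of highest -log10 p lay in the flanks for both T-type genes, Cacna1c and Scn4b. At chr11:94477951-94478750 beside Cacna1g, Mef2c signal was 27 and 34 in KO and 163 and 165 in Cre, with a limma difference of -2.40 on the log2(value + 1) scale (SE 0.73, unadjusted p 0.00828, adjusted p 0.399). Inside Cacna1g a region went the other way, with 276 and 357 in KO and 90 and 133 in Cre at chr11:94427151-94428600. In Scn10a the region chr9:119652401-119652850 had 0 and 7 in KO and 81 and 128 in Cre, while chr9:119716451-119716850 had 93 in both KO libraries and 0 and 10 in Cre.

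Counted over all 6 genes, G9a and Mef2c regions were closer to an even split than their whole lists. The adult genes were the ones near an even split, with 51.6% of G9a and 47.3% of Mef2c regions lower in KO. At the T-type genes 63.2% and 62.8% were lower, near the shares of the whole lists. For G9a 140 of 256 regions (54.7%) were lower in KO, beside 61.5% of all listed regions, and 141 (55.1%) had both KO values on 1 side of both Cre values, beside 61.5%. For H3K9me2 111 of 261 (42.5%) were lower, beside 39.7%, and 150 (57.5%) higher, beside 60.3%, and 158 (60.5%) were separated, beside 65.7%. H3K27me3 had 65 of 156 (41.7%) lower, beside 63.3%, and 91 (58.3%) higher, beside 36.7%, and 108 (69.2%) separated, beside 67.1%. Mef2c had 106 of 210 (50.5%) lower, beside 61.7%, and 145 (69.0%) separated, beside 65.9%. Separated regions were thus less frequent than in the whole list for G9a and H3K9me2 and slightly more frequent for H3K27me3 and Mef2c. In limma 10 G9a, 23 H3K9me2, 29 H3K27me3 and 25 Mef2c regions had an unadjusted p under 0.05, which is 3.91%, 8.81%, 18.6% and 11.9% of the members' regions, beside 6.5%, 11.1%, 15.3% and 11.3% of all. After adjustment over each list, limma called 0 regions of the 6 genes for any target, beside 0.0%, 0.0%, 0.00119% and 0.0% of all regions, and the lowest limma adjusted p at these genes was 0.322, for H3K27me3.

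**Figure D5:**
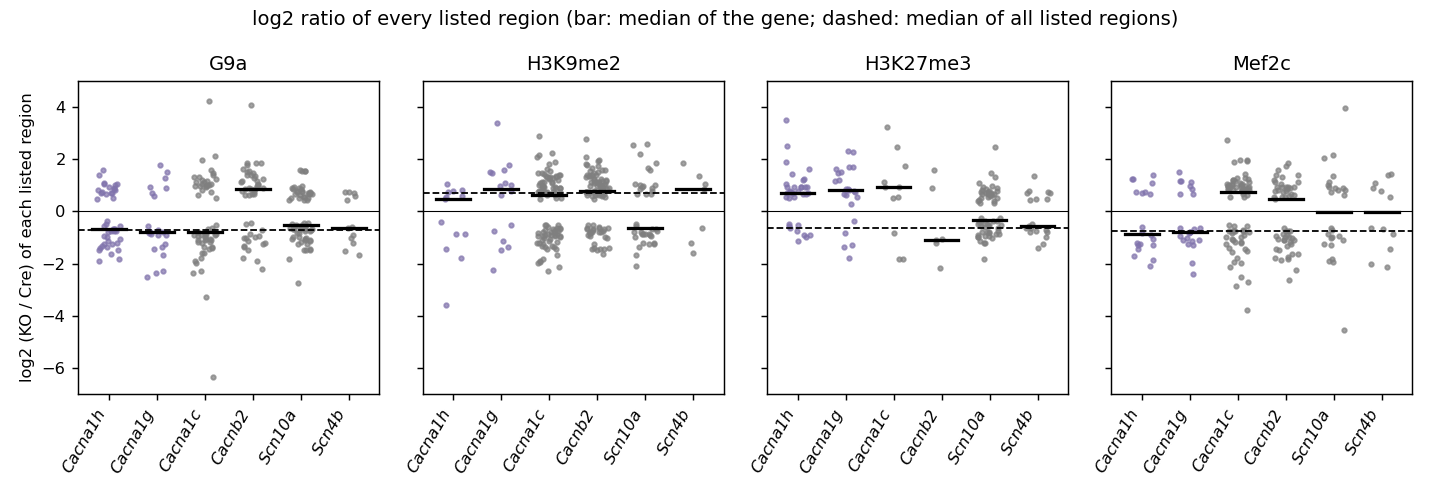
log2 ratio of KO to Cre (y axis) of every listed region of the 6 genes (x axis, points; T-type in purple, adult in grey) for the 4 targets (panels). Black bars are the gene medians and the dashed line the median of all listed regions; the H3K27me3 medians of Cacna1h (0.70) and Cacna1g (0.83) lie above 0 and that of all listed regions (-0.64) below it.

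Another 28 sodium and calcium channel genes were summed the same way for context. Their H3K27me3 sums were lower in KO without overlap for 19, higher for 3 and overlapping for 6, with a median log2 ratio of -0.25. The 6 genes had 3 higher (Cacna1h, Cacna1g and Cacna1c), 2 lower and 1 overlapping, with a median of 0.14. Among all genes with a listed H3K27me3 region 12.6% were higher and 53.1% lower without overlap, with a median of -0.27. Those higher included Cacna2d1 (1.12), which encodes an accessory calcium channel subunit and had 2 listed regions, and Scn4a (0.34), the sodium channel pore of skeletal muscle. For Mef2c 1 of the 6 genes was lower and 0 higher, beside 17 lower and 1 higher of 27 others and 47.6% and 10.5% of all genes. G9a sums were lower for 2 and higher for 1 of the 6, beside 8 and 3 of 28 others and 39.9% and 9.51% of all genes. H3K9me2 sums were higher for 3 and lower for 0, beside 12 and 5 of 28 others and 42.2% and 11.7% of all genes.

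Across the 4 log2 ratios of sums, the gene most like Cacna1h among these 28 and the other 5 was Scn4a, at a Euclidean distance of 0.39, followed by Cacna1g at 0.54. Cacna1g was nearest to Cacna1h, at 0.54, barely closer than to Scn4b and Scn4a, both at 0.56. Scn10a was nearest to Cacna1d, at 0.14, the closest pair of those named, and Cacna1c to Scn4a, at 0.38. Cacnb2 was nearest to Scn3a, at 0.35, and Scn4b to Cacna1a, at 0.37. These distances rest on 4 targets measured in the same 2 genotypes.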

How the data were processed

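ChIP-seq was compared between KO and Cre for 4 targets, with 2 libraries per genotype and target. Alignment was to mm10 (GRCm38) with BWA 0.7.10-r789 and SAMtools 1.1, per the submitters' processing notes. The authors deposited 1 list of differing regions per target, each with 4 whole-number signal values and a -log10 p in a text cell. The sources used here do not state the region caller, the normalization, the filter or the role of the inputs. The values were therefore not modelled as counts, and depth is unknown. The order of the values (Cre, then KO) was taken from the names of the deposited lists, and they carry no replicate number. The series text names H3K27me2 where its labels name H3K27me3, and the labels were followed.

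The 6 genes, the gene lists and the comparisons were chosen with earlier results of these data known. Regions named were taken from those that, for each gene and target, had the highest -log10 p among the lower and among the higher ones, and from those within 1 kb of a gene start; not all of these are printed, and which are was chosen after their values were seen. Outside that rule, the Cacna1h domain's neighbours, the regions at chr17:25366901-25368300, chr17:25412151-25412850, chr11:94472401-94475550 and chr6:119143101-119143500 and the listed channel genes with higher H3K27me3 were named after their values were seen. Gene spans came from RefSeq (GRCm38.p6), without exons, and all 28 other channel genes matched. Overlap meant 1 shared base. Log2 ratios are of the KO mean over the Cre mean with a pseudocount of 1. On log2(value + 1), limma 3.58.1 with trended empirical Bayes (R 4.3.3) was fitted over each whole list with Benjamini-Hochberg adjustment, after a check on simulated data. Since a region is listed only where the genotypes differed, limma's p-values are too small. Alternatives were the gene span alone, a window of 50 kb, a -log10 p of at least 5, a pseudocount of 10, libraries scaled to the same median, no trend and leaving out each value.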

Additional observations from a re-analysis of the deposited data

How the results depend on the processing

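No paired analysis was possible because the deposited values carry no replicate number. Of 216 alternatives over the 24 pairs of gene and target, 189 were counted as the same, 23 as moving the log2 ratio of sums and 4 as reversing it. The same meant a shift no larger than the spread between libraries of a genotype, from the variances of their log2 sums. Where libraries differ widely, large shifts thus count as the same. G9a at Cacna1h, for example, did so at -1.02 and 0.24, against -0.25. A reversal was counted only where the KO and Cre sums did not overlap, and overlapping ratios near 0 changed sign as well, under scaling to the same median for example Cacna1c (0.18) and Scn10a (0.16) for G9a, Cacnb2 (0.16) and Scn10a (0.20) for Mef2c and Cacna1h (-0.26) for H3K9me2. Reversed were Scn4b for G9a in the gene span alone (0.04), Cacna1c for H3K9me2 (-0.22) and Scn10a for H3K27me3 (0.10) with libraries scaled to the same median, and Cacnb2 for H3K27me3 in a window of 50 kb (0.12). That scaling moved the median of each list on the log2 scale (G9a by 0.31, H3K9me2 by -0.29, H3K27me3 by 0.28, Mef2c by 0.33), and H3K27me3 at Cacna1h then had 0.85 and at Cacna1g 0.71. Leaving out each value in turn gave 0.55 to 0.57 for Cacna1h and 0.30 to 0.57 for Cacna1g. The share of member regions lower in KO ran, leaving out each value, from 49.6% to 58.2% for G9a, 41.0% to 47.9% for H3K9me2, 41.7% to 44.9% for H3K27me3 and 50.5% to 54.3% for Mef2c. At a -log10 p of at least 5 it was 58.6% for Mef2c. The added T-type over adult difference, chosen after seeing the data, ran from 0.59 to 0.71 for H3K27me3, -0.42 to -0.25 for Mef2c, -0.81 to 0.09 for G9a and -0.07 to 0.21 for H3K9me2 when each value was left out. For H3K27me3 it was 0.79 in the gene span alone, 0.25 in a window of 50 kb and 0.52 without Scn10a.

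Counts of regions with a limma unadjusted p under 0.05 depended on single libraries. They were 40399 for G9a (13085 to 192875 leaving out each value), 79381 for H3K9me2 (30213 to 182264), 77011 for H3K27me3 (33738 to 102247) and 60292 for Mef2c (26290 to 115017). Without the first G9a KO value limma called 64315 regions after adjustment, and without a trend the H3K27me3 count was 51230. Scaling to the same median turned the split of such regions from mostly lower to mostly higher for G9a (15008 lower and 25831 higher, against 31830 and 8569), H3K27me3 (24677 and 40054, against 61884 and 15127) and Mef2c (20627 and 36957, against 46078 and 14214), and the other way for H3K9me2 (50300 and 29095, against 20682 and 58699). The cause was not tested. With a lone value left in a group, it is assumed to vary like the others. Depth is unknown, and regions outside the lists have no value.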
